A study of Homo sapiens with 30 samples.

Results

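The step from 0.5 to 2.5 μM Omomyc after 6 h in Ramos cells was measured with 3 RNA-Seq libraries at each dose. The comparison covered the 13511 of 57992 genes in the deposited table whose mean was at least 0.5 RPKM (reads per kilobase of a gene, scaled to the size of the library) over these 6 of the 30 libraries of the series. Omomyc is a mutant form of the dimerization and DNA-binding region of MYC, given here as a protein. Ramos is a Burkitt lymphoma line, and its labels state that it carries a MYC translocation. Its libraries fall into 5 groups of 3: untreated, 0.5 μM for 6 h, 2.5 μM for 6 h, 0.5 μM for 24 h and 2.5 μM for 24 h. The low dose is written as 500 nM in the labels. A separate label gives the time of the 24 h libraries as 4 h, and the 24 h of their titles was used. The untreated libraries carry no time, and the sources used here do not say how the protein was delivered to Ramos cells, so Omomyc, its carrier and handling cannot be told apart in a comparison with untreated cells. The dose step sets treated cells against treated cells. Whether the amount of carrier was the same at both doses is not stated, so dose and amount of carrier cannot be told apart either. Nothing states that libraries of a group came from separate cultures, so p-values measure only the spread between these libraries, which may be technical.

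MYC is a transcription factor that binds the E box as a dimer with MAX and acts on genes of growth, ribosome production and metabolism. In Burkitt lymphoma its gene is placed beside an immunoglobulin locus, whose enhancers keep it active. Omomyc can pair with MYC, with MAX or with itself, and its dimers can take the place of MYC and MAX at the E box. In mature B cells, signals from the antigen receptor pass through kinases to ERK and induce, within minutes to hours, the immediate early genes, among them the EGR factors, the NR4A nuclear receptors and the phosphatases that turn ERK off again.

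The 6 libraries held about 24460000 to 40850000 reads in the scaling of their RPKM values, recovered from the steps between low values, and 80.7 to 83.3% of low values in single-transcript genes were whole reads within 0.02 reads. A gene of 2 kb at 0.5 RPKM thus stood on 24.5 to 40.9 reads. Replicates correlated at r = 0.9907 to 0.9936 on the log2 scale across genes. On the first principal component, with 26.7% of the variance, 0.5 μM replicate 1, the shallowest of the 6, lay at -21.45 and the other libraries between -2.01 and 8.01. The 7 B cell markers were all at 39.5 RPKM or more in the 6 libraries, and their summed level was 6320 to 6450 RPKM at 0.5 μM and 6260 to 6770 RPKM at 2.5 μM. The 5 listed markers of T and NK cells summed to at most 0.642 RPKM and those of myeloid cells to at most 0.237 RPKM. Those of epithelial cells such as HCT116, the other line of the series, summed to at most 0.162 RPKM. CD2, CSF1R, EPCAM and CDH1 were listed at 0. KLRK1, a receptor of NK and T cells outside these lists, was at 143.7 ± 6.82 RPKM with 0.5 μM and 120.9 ± 2.63 RPKM with 2.5 μM (SD, n = 3).

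Few genes differed between the doses, and most of them by little. In all, 58 of 13511 genes (0.429%) passed an adjusted p of 0.05 by limma, of which 25 (0.185%) were higher and 33 (0.244%) were lower at 2.5 μM. Their log2 differences had a median size of 0.36, set against a median SD of 0.095 between libraries of a dose over all genes tested, and every member of the 58 had no overlap between the doses, which was so for 2177 genes (16.1%) overall. Without correction, 1373 genes (10.2%) had p under 0.05. The genes that fell included DUSP2, EGR2, NR4A1 and NAB2 of the immediate early and ERK response, and CD72 and PTPN6 of B cell receptor signaling. Those that rose included MYC itself, 4 genes of cholesterol synthesis and its control, and the receptors TNFRSF17, IL10RA and CXCR4.

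**Figure D1:**
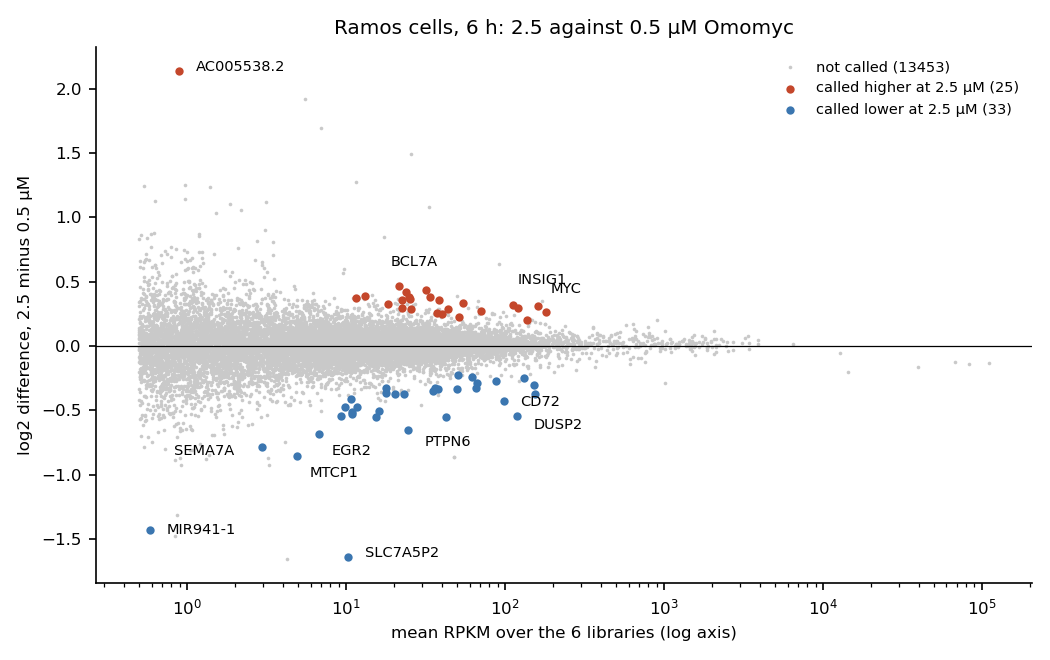
Each point is 1 of 13511 genes tested, with its mean RPKM over the 6 libraries on a log axis and the log2 difference of 2.5 minus 0.5 μM after 6 h; red points (25) were called higher and blue points (33) lower. All but 3 called genes lie within 1 of 0 on the log2 scale, among many uncalled genes with wider differences at low levels.

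The number of genes called depended on the libraries and on the filter. Leaving out 1 library moved the count of 58 to 18 without 0.5 μM replicate 1, to 0 without 0.5 μM replicate 2, to 4 without 0.5 μM replicate 3, to 2 without 2.5 μM replicate 1, to 8 without 2.5 μM replicate 2 and to 0 without 2.5 μM replicate 3. In the fits by limma with a count of 0, 1216 and 1079 genes had an unadjusted p under 0.05. A fit of genes with no filter on low values also called 0 genes (1877 with an unadjusted p under 0.05), as did eBayes without a trend on the level (1276), and a filter at a mean of 2 RPKM called 91, of which 56 were among the 58. Rescaling the libraries to an equal sum called 33 genes, 69.7% of them higher, against 43.1% in the values as deposited, with 27 genes in common. All 58 kept their direction in each alternative in which they were tested. In the fits without a library the direction could not turn, since the doses did not overlap in any of the 58.

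**Figure D2:**
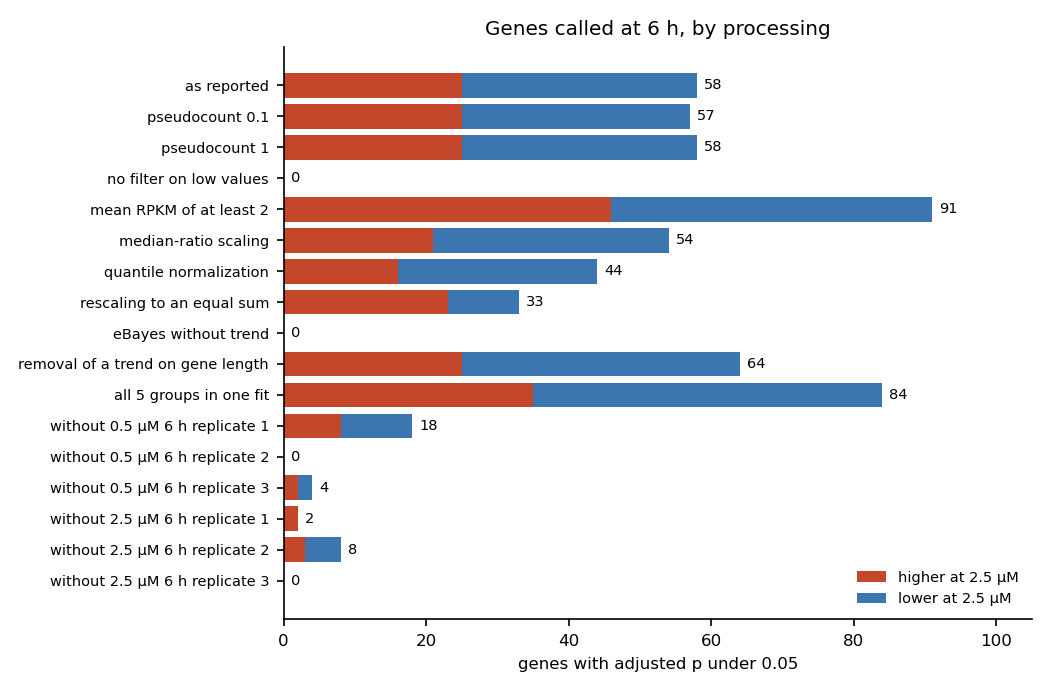
Bars give the number of genes with an adjusted p under 0.05 for 2.5 against 0.5 μM Omomyc at 6 h, split into higher (red) and lower (blue), by way of processing. The fit with a replicate block, which called 2 genes, is not drawn. The count is 58 as reported, 0 with no filter or without a trend, 33 to 91 under the other settings shown with all libraries, and 0 to 18 when 1 library is left out.

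Of the immediate early and ERK response genes, 4 of 30 tested fell at the higher dose. DUSP2, a nuclear phosphatase that inactivates ERK, was at 134, 140.2 and 151 RPKM in the 3 libraries with 0.5 μM and at 100.2, 100.01 and 90.1 RPKM in those with 2.5 μM. Every library of the higher dose was below every library of the lower one, and the log2 difference was -0.55 (SE 0.0560, adjusted p = 0.0119). Untreated cells had 238 ± 17.1 RPKM (SD, n = 3), above both doses. EGR2, a zinc finger factor induced by the antigen receptor, was at 9.09, 8.05 and 8.42 RPKM with 0.5 μM and at 5.29, 5.23 and 4.80 RPKM with 2.5 μM, a log2 difference of -0.69 (SE 0.0796, adjusted p = 0.0181), beside 31.1 ± 1.38 RPKM in untreated cells. Its level at either dose was far below the untreated one. NAB2, a corepressor that binds EGR proteins, was at 20.3, 17.5 and 19.4 RPKM and then at 13.0, 14.4 and 12.5 RPKM, a log2 difference of -0.50 (SE 0.0731, adjusted p = 0.0268). The orphan nuclear receptor NR4A1 was at 14.5, 11.8 and 12.7 RPKM and at 8.95, 8.48 and 9.15 RPKM, a log2 difference of -0.53 (SE 0.0801, adjusted p = 0.0268), with untreated cells at 14.1 ± 0.931 RPKM. For EGR2, DUSP2 and NAB2 both doses lay below untreated cells, while NR4A1 at the lower dose overlapped the untreated libraries. These comparisons with untreated cells use the same treated libraries as the dose step.

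Of 30 tested genes in the list of immediate early and ERK response genes, 4 fell (EGR2, DUSP2, NR4A1 and NAB2), 0 rose by limma and 17 had an unadjusted p under 0.05. Over all genes tested 0.244% were called lower and 10.2% had an unadjusted p under 0.05. The median log2 difference of the list was -0.235, the lowest of 37 lists, with 25 of 30 members below 0, beside a median of 0.011 and 45.4% below 0 over all genes tested. Other settings and fits without a library gave medians from -0.252 to -0.163, and rescaling to an equal sum called 2 members. Members that did not pass included FOS, a subunit of AP-1, at -0.42 (adjusted p = 0.0714), EGR1 at -0.55 (adjusted p = 0.144) and the G protein regulator RGS2 at -0.28 (adjusted p = 0.122). JUN was at -0.07 and MCL1, which blocks apoptosis, at 0.11, with adjusted p-values of 0.918 and 0.437.

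HBEGF, a growth factor of the EGF family made as a membrane protein, was at 30.4, 29.5 and 30.8 RPKM in untreated cells and at 51.8, 49.2 and 50.8 RPKM with 0.5 μM. With 2.5 μM it was at 32.7, 37.8 and 32.9 RPKM, a log2 difference from the lower dose of -0.55 (SE 0.0591, adjusted p = 0.0133). The lower dose thus held the highest levels of the 3 groups, and the higher dose lay above the untreated libraries with a log2 difference of 0.18 that did not pass (adjusted p = 0.0632). SEMA7A, a membrane-anchored semaphorin, was at 3.88, 3.59 and 4.12 RPKM and at 1.72, 2.28 and 2.12 RPKM at the 2 doses, a log2 difference of -0.79 (SE 0.119, adjusted p = 0.0268), beside 10.3 ± 1.53 RPKM in untreated cells. ADM, which encodes the vasodilator peptide adrenomedullin, fell from 11.7, 11.02 and 10.8 RPKM to 7.90, 7.21 and 7.34 RPKM, a log2 difference of -0.55 (SE 0.0682, adjusted p = 0.0244). BCAR3, an adaptor with an SH2 domain, fell from 19.4, 17.6 and 18.1 RPKM to 11.6, 14.2 and 11.5 RPKM, a log2 difference of -0.55 (SE 0.0832, adjusted p = 0.0268). In all 4 genes the doses did not overlap.

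Several genes of B cell receptor signaling and B cell identity also changed. PTPN6 encodes SHP-1, a phosphatase that damps receptor signaling, and it was at 31.7, 29.8 and 28.9 RPKM with 0.5 μM and at 19.0, 21.2 and 17.1 RPKM with 2.5 μM, beside 47.0 ± 2.33 RPKM in untreated cells. Its log2 difference was -0.65 (SE 0.0756, adjusted p = 0.0181). CD72, an inhibitory coreceptor that recruits SHP-1, was at 117, 112 and 111 RPKM with 0.5 μM and at 85.9, 86.4 and 79.6 RPKM with 2.5 μM, a log2 difference of -0.43 (SE 0.0442, adjusted p = 0.0119). Its untreated libraries, at 84.5, 87.6 and 91.2 RPKM, overlapped the higher dose and lay under the lower dose. IKZF1, the lymphoid factor Ikaros, was also highest at the lower dose, with 73.0, 76.3 and 71.2 RPKM untreated, 95.2, 95.7 and 98.2 RPKM at 0.5 μM and 80.6, 81.2 and 77.2 RPKM at 2.5 μM. The dose step of IKZF1 was -0.27 (SE 0.0379, adjusted p = 0.0244). Its 3 groups did not overlap, but 2.5 μM against untreated did not pass by limma (log2 difference 0.12, adjusted p = 0.0836). BLNK, the adaptor that links the receptor to phospholipase C, was at 56.0, 53.9 and 54.1 RPKM and at 46.2, 46.9 and 46.9 RPKM, a log2 difference of -0.23 (SE 0.0384, adjusted p = 0.0425), against 42.4 ± 0.744 RPKM untreated. ITPKB, a kinase of inositol trisphosphate, went from 24.1, 21.97 and 23.1 RPKM to 17.9, 17.8 and 17.3 RPKM, a log2 difference of -0.38 (SE 0.0526, adjusted p = 0.0244), against 15.7 ± 0.826 RPKM untreated. CD72, IKZF1, BLNK and ITPKB thus stood highest at the lower dose. In bulk libraries fewer cells of a type and less RNA per cell cannot be told apart.

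MEF2C, a factor that works with ERK5 and p38 in B cells, was at 41.5, 37.6 and 39.8 RPKM and at 30.3, 31.95 and 30.7 RPKM, a log2 difference of -0.35 (SE 0.0491, adjusted p = 0.0244). CXCR5, the receptor that guides B cells to follicles, was at 14.4, 13.1 and 13.9 RPKM and at 9.59, 10.8 and 9.02 RPKM, a log2 difference of -0.48 (SE 0.0763, adjusted p = 0.0323). CXCR4, the receptor for CXCL12, moved the other way, from 165, 168 and 161 RPKM to 189, 199.6 and 208 RPKM, a log2 difference of 0.27 (SE 0.0429, adjusted p = 0.0323). The 2 chemokine receptors thus passed in opposite directions. VPREB3, which binds nascent immunoglobulin chains, rose from 30.3, 26.6 and 30.7 RPKM to 37.1, 38.2 and 39.0 RPKM, a log2 difference of 0.38 (SE 0.0591, adjusted p = 0.0297), beside 15.1 ± 1.71 RPKM in untreated cells. TNFRSF17 encodes BCMA, a survival receptor of plasma cells, and it was at 19.3, 20.8 and 20.9 RPKM with 0.5 μM and at 26.5, 27.2 and 28.4 RPKM with 2.5 μM, a log2 difference of 0.42 (SE 0.0524, adjusted p = 0.0244). NPIPB2 overlaps it on the other strand, as STAT6 does NAB2, TESK1 CD72, ZNF518A BLNK and MMAB MVK, and whether counting used strand is not given in the sources used here. IL10RA, a subunit of the receptor for interleukin 10, was at 10.7, 11.2 and 12.3 RPKM and at 14.6, 15.4 and 15.1 RPKM, a log2 difference of 0.39 (SE 0.0661, adjusted p = 0.0425). IL21R, the receptor for interleukin 21, fell to 59.8 ± 2.60 RPKM from 73.1 ± 3.45 RPKM (log2 difference -0.29, SE 0.0488, adjusted p = 0.0425).

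Of 42 tested genes for B cell identity and receptor signaling, 1 rose (VPREB3) and 5 fell (PTPN6, CD72, MEF2C, IKZF1 and BLNK), with a median of -0.042. The median ranged from -0.052 to 0 over the alternatives and the libraries left out, and rescaling to an equal sum called 3 members. Over all genes tested 0.185% were called higher and 0.244% lower. The receptor chains and surface markers that define the cells stayed under the threshold, with log2 differences of -0.03 for CD79A, 0.16 for CD79B, -0.05 for MS4A1 and 0.04 for the μ heavy chain IGHM. Of 9 plasma cell genes, 1 rose (TNFRSF17), with a median of -0.007. Of 12 chemokines and receptors tested, 1 rose and 1 fell, with a median of -0.121 that went to -0.004 without 0.5 μM replicate 1, and the ligands CCL3 and CCL4 were at -0.69 and -0.54 with adjusted p-values of 0.218 and 0.404. Of 32 NF-κB feedback genes and targets, 1 fell, CD83, a surface marker of activated B cells, by a log2 difference of -0.33 (SE 0.0557, adjusted p = 0.0425). The list had a median of -0.08, with a range of -0.101 to -0.036 over the alternatives. CD83 was at 80.1, 72.2 and 69.6 RPKM with 0.5 μM and at 56.4, 60.4 and 59.2 RPKM with 2.5 μM, both under the 119 ± 7.61 RPKM of untreated cells. The survival factor BCL2A1 was at 24.98 ± 1.82 and 19.3 ± 1.24 RPKM at the 2 doses and missed the threshold (log2 difference -0.36, adjusted p = 0.0589). Of 16 BCL2 family genes, 1 fell, the proapoptotic BIK, from 179.9, 164 and 179 RPKM to 127, 133 and 143 RPKM (log2 difference -0.38, SE 0.0537, adjusted p = 0.0260). No member of the 21 genes for MHC class II and co-stimulation passed by limma, with 4 at an unadjusted p under 0.05 and a median of -0.09.

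**Figure D3:**
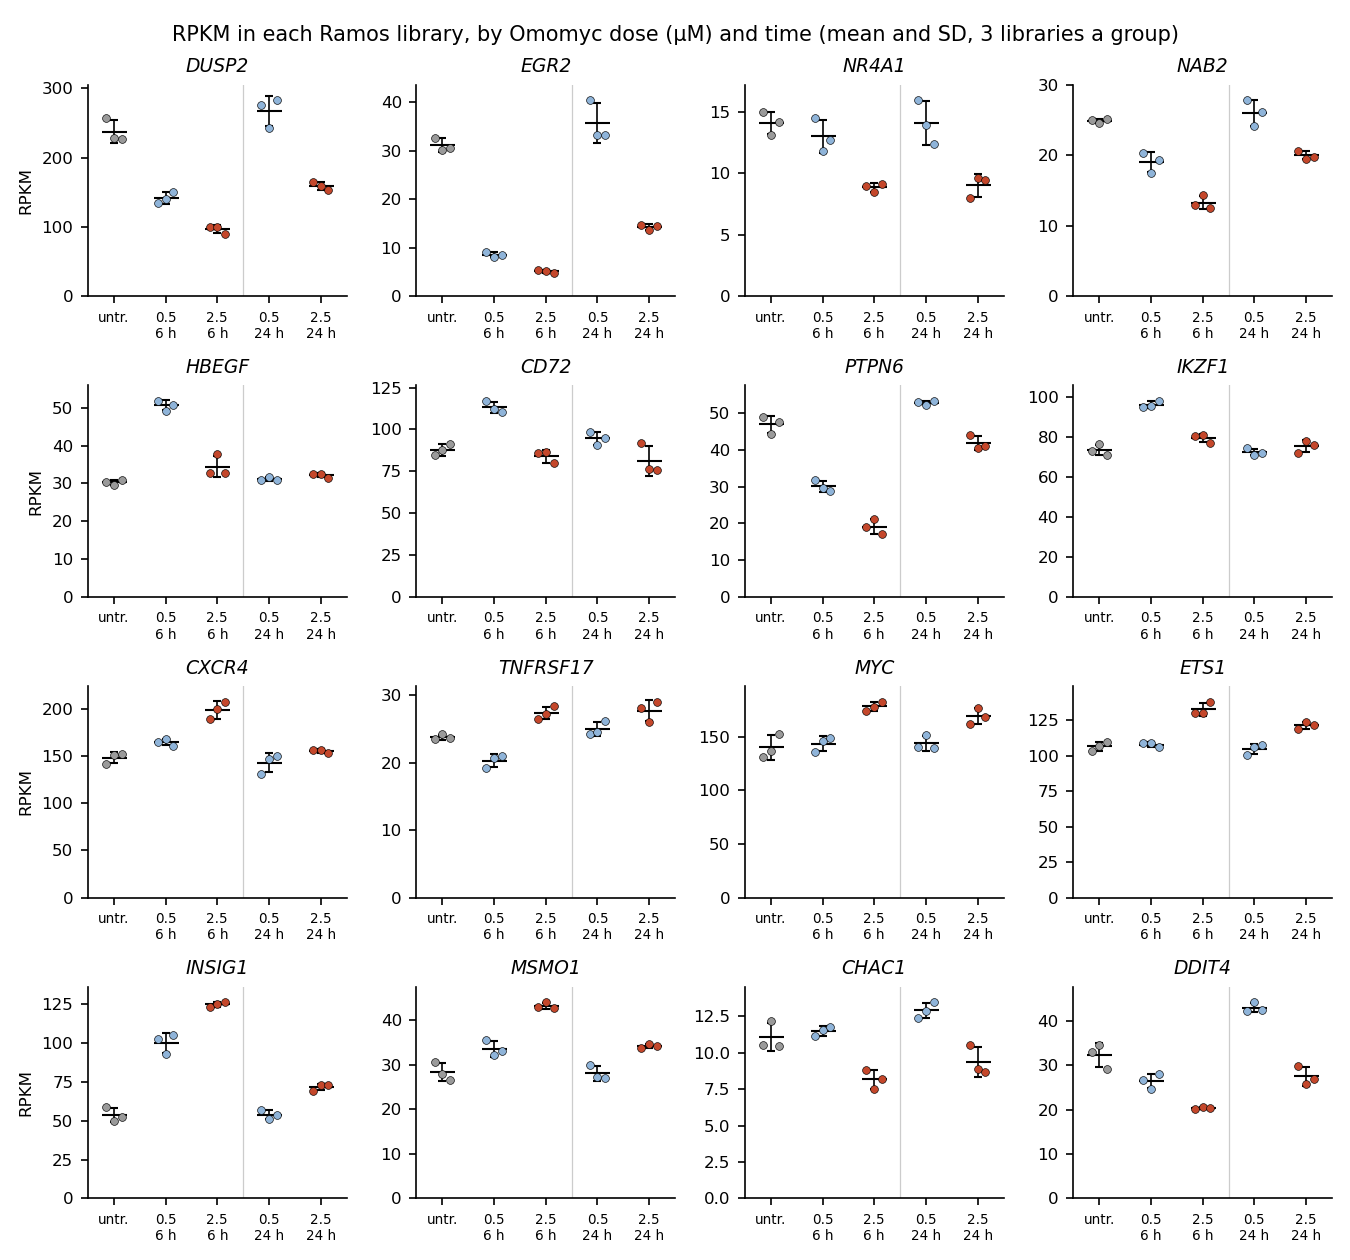
Points give RPKM in each of the 15 Ramos libraries for 16 genes called at 6 h, by dose and time, with the mean and SD of 3 libraries; each axis starts at 0. At 6 h the 2.5 μM libraries lie apart from the 0.5 μM libraries in each panel, and HBEGF, CD72 and IKZF1 are highest at 0.5 μM.

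MYC (ENSG00000136997, chromosome 8, 127735434 to 127741434, GRCh38) was at 131, 136 and 153 RPKM in untreated cells, at 136, 146 and 149 RPKM with 0.5 μM and at 174, 178 and 183 RPKM with 2.5 μM. The lower dose overlapped the untreated libraries, and each library of the higher dose lay above all 6 others. The log2 difference between the doses was 0.31 (SE 0.0432, adjusted p = 0.0244), with an exact two-sided permutation p of 0.1, the smallest that 3 against 3 libraries can give. The adjusted p ranged from 0.0158 to 0.218 over the alternatives and the fits without a library, and the difference from 0.27 to 0.36. MAX, the partner of MYC, was at 24.8, 24.2 and 26.0 RPKM and at 24.4, 25.1 and 25.03 RPKM, a log2 difference of -0.01 (adjusted p = 0.979, exact permutation p = 0.9) whose sign turned with rescaling to an equal sum and without 0.5 μM replicate 3 or 2.5 μM replicate 1. Of 18 tested genes of the MYC, MAX and MXD network, MYC was the 1 that passed by limma. In this list 4 had an unadjusted p under 0.05, and the median was 0.023. Over all genes tested 0.429% were called, 10.2% had an unadjusted p under 0.05 and the median was 0.011. The repressor MNT, which also pairs with MAX, was at 0.39 and MXI1 at 0.33, with adjusted p-values of 0.241 and 0.376.

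Genes of ribosome production and growth, on which MYC is known to act, did not pass. Of 44 genes for ribosome biogenesis, 0 were called by limma (5 with an unadjusted p under 0.05), with 33 above 0 and a median of 0.035. Nucleolin (NCL) was at 206, 224 and 219 RPKM with 0.5 μM and at 229, 222 and 213 RPKM with 2.5 μM, a log2 difference of 0.03 whose sign turned without 0.5 μM replicate 1. NPM1, a nucleolar chaperone, had a log2 difference of 0.05. Among the other genes with promoters studied by chromatin immunoprecipitation, RRS1, LYAR, BOP1 and PUS1, all of ribosome or RNA maturation, had 0.14, 0.12, -0.04 and -0.08. HSPBAP1 was at 0.07, FBXW8 at -0.01 and VEGFA at -0.24, the sign of FBXW8 turning with rescaling to an equal sum and when a library was left out, and FBXO32 was below the filter. In this list of 9 tested genes 0 were called (3 with an unadjusted p under 0.05), with a median of 0.033. Of the genes studied by RT-PCR, ASNS was at -0.05, ID3 at -0.06, SAT1 at -0.01 (its sign turning with rescaling to an equal sum and when a library was left out) and CD274, which encodes PD-L1, at -0.31 (adjusted p = 0.694), and of these 5 only EGR2 was called. The RT-PCR and the chromatin immunoprecipitation were done in HCT116 cells after 24 h of Omomyc, against untreated cells. The dose step here is in another line, at another time and between treated groups. The 85 cytosolic ribosomal protein genes had a median of 0.021 (-0.016 without 0.5 μM replicate 1, with 53 of 85 below 0 against 23), the 24 nucleotide synthesis genes 0.025, the 39 DNA replication genes 0.051 and the 40 mitosis genes 0.057, each with 0 called by limma (1, 3, 3 and 9 with an unadjusted p under 0.05). Above 0 lay 62 of the 85 ribosomal protein, 18 of the 24 nucleotide synthesis, 32 of the 39 replication and 34 of the 40 mitosis genes. Over all genes tested 0.429% were called by limma, 54.6% lay above 0 and 10.2% had an unadjusted p under 0.05.

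Of the tested genes for cholesterol synthesis and its control, 4 of 26 rose at 2.5 μM. The pathway is switched on by SREBP2, and INSIG1 holds SREBP2 back in the endoplasmic reticulum. INSIG1 was at 58.6, 49.7 and 52.6 RPKM in untreated cells, 103, 93.0 and 105.2 RPKM with 0.5 μM and 123, 125 and 126 RPKM with 2.5 μM. Its 3 groups did not overlap, and the dose step was 0.32 (SE 0.0485, adjusted p = 0.0268). MSMO1, a sterol methyl oxidase, was at 35.6, 32.2 and 33.0 RPKM and at 42.9, 44.0 and 42.7 RPKM, a log2 difference of 0.36 (SE 0.0480, adjusted p = 0.0244). Mevalonate kinase (MVK) was at 10.2, 9.69 and 10.3 RPKM and at 13.0, 13.6 and 13.0 RPKM, a log2 difference of 0.38 (SE 0.0590, adjusted p = 0.0304). Of 26 tested genes for sterol synthesis and SREBP2, 4 rose by limma, INSIG1, MSMO1 and MVK among them, and 0 fell. In the list 15 had an unadjusted p under 0.05 and 20 lay above 0. Over all genes tested 0.185% were called higher, 10.2% had an unadjusted p under 0.05 and 54.6% lay above 0. The median of the list was 0.12, between 0.101 and 0.171 over the alternatives and the libraries left out. Rescaling to an equal sum called 3 members. Members that missed the threshold included the synthase HMGCS1 (0.26, adjusted p = 0.0700) and on the other side ABCG1, a sterol exporter (-0.63, adjusted p = 0.0714).

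Stress genes downstream of ATF4, the factor made when amino acids run short or the endoplasmic reticulum is stressed, included 3 that fell. CHAC1, which degrades glutathione, was at 11.1, 11.6 and 11.8 RPKM and at 8.82, 7.52 and 8.16 RPKM, a log2 difference of -0.47 (SE 0.0729, adjusted p = 0.0285). DDIT4, an inhibitor of mTORC1 also induced by hypoxia, was at 26.6, 24.8 and 28.0 RPKM and at 20.04, 20.5 and 20.4 RPKM, a log2 difference of -0.37 (SE 0.0549, adjusted p = 0.0268). SESN2, a leucine sensor that restrains mTORC1, was at 19.5, 19.7 and 20.5 RPKM and at 15.9, 15.7 and 15.7 RPKM, a log2 difference of -0.33 (SE 0.0495, adjusted p = 0.0268). In each of these the doses did not overlap. DEPTOR, a subunit that inhibits mTOR, moved the other way, from 34.7, 33.7 and 33.9 RPKM to 41.6, 39.9 and 40.9 RPKM (log2 difference 0.26, SE 0.0409, adjusted p = 0.0323). Of 31 tested genes of the amino acid response and ATF4, 3 fell and 0 rose by limma, 11 had an unadjusted p under 0.05 and 26 lay below 0, with a median of -0.067, where all genes tested had 0.429% called, 10.2% under 0.05 and 45.4% below 0. With rescaling to an equal sum 0 members were called by limma, 21 lay below 0 and the median was -0.023. ATF4 itself was at -0.03 (adjusted p = 0.884), DDIT3 at -0.43 (adjusted p = 0.0589) and ASNS, named above, was under the threshold. SESN2 was also the 1 called member of the 24 p53 targets (median 0.038), and ADM and DDIT4 were the 2 that fell among 15 hypoxia genes (median -0.009). The 26 genes of endoplasmic reticulum stress had 0 called by limma (9 with an unadjusted p under 0.05) and a median of -0.029.

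**Figure D4:**
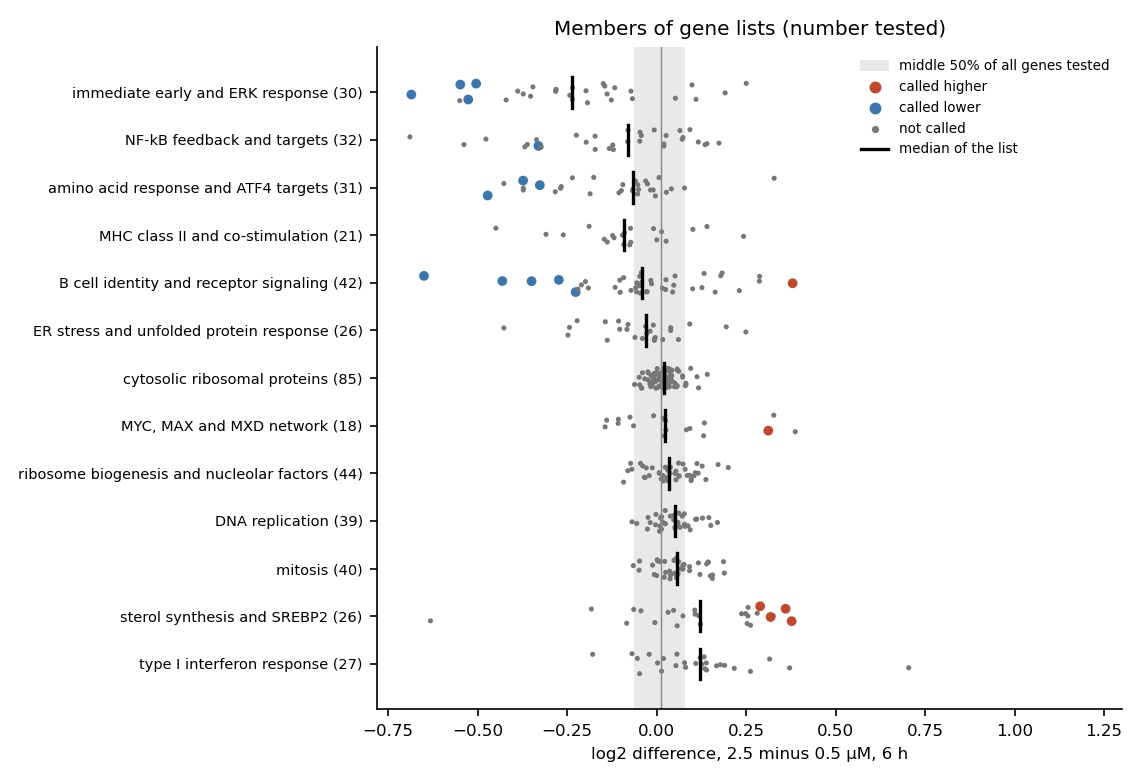
Each point is a tested gene of a list, with its log2 difference of 2.5 minus 0.5 μM after 6 h; blue and red points were called, black bars are list medians, and the grey band holds the middle 50% of all genes tested. The immediate early list lies farthest to the left (median -0.235), and the sterol and interferon lists farthest to the right (0.12 and 0.122).

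The remaining called genes had varied roles. ETS1, a transcription factor of lymphocytes, rose from 109, 109 and 106 RPKM to 130.2, 129.8 and 138 RPKM (log2 difference 0.30, SE 0.0389, adjusted p = 0.0244), and the survival kinase PIM2 from 20.7, 22.4 and 22.04 RPKM to 29.5, 28.0 and 27.6 RPKM (log2 difference 0.38, SE 0.0514, adjusted p = 0.0244). BCL7A, a subunit of SWI/SNF chromatin remodelers, had the largest rise among the called genes with at least 100 reads in each library, from 17.0, 17.8 and 19.6 RPKM to 24.3, 24.98 and 26.2 RPKM (log2 difference 0.46, SE 0.0614, adjusted p = 0.0244). ANP32B, a histone chaperone, rose from 29.9, 24.7 and 26.5 RPKM to 36.2, 36.5 and 37.2 RPKM (log2 difference 0.43, SE 0.0658, adjusted p = 0.0268), with untreated cells at 26.6 ± 0.818 RPKM. ETS1 and ANP32B lay near the untreated level at the lower dose and above it at the higher one. The ubiquitin ligase RNF144B, a target of p53, rose by 0.34, the germinal center GTPase NUGGC by 0.35, FAM167A by 0.36, the sulfotransferase CHST15 by 0.32, SH3TC1 by 0.30, AKAP2, an anchor of protein kinase A, by 0.27, the G protein subunit GNB4 by 0.25, BCR, a regulator of GTPases, by 0.23 and the tubulin TUBB3 by 0.20, all on the log2 scale. On the other side, the hyaluronidase CEMIP2 was at -0.51, TAF13, a subunit of TFIID, at -0.41, the glycosyltransferase GCNT1 at -0.36, EVI2A at -0.34, the proton channel HVCN1 at -0.33, ARHGAP9, which turns off GTPases, at -0.32, the centrosomal protein NIN at -0.30, the receptor KLRK1 at -0.25 and FAM107B at -0.24. For the genes of which the difference alone is given, adjusted p-values lay between 0.0244 and 0.0490. TUBB3, KLRK1, AKAP2, BCR, NIN, GCNT1, EVI2A and FAM107B of these, and ITPKB and SEMA7A above, overlap another annotated gene on the same strand, so their reads could be split between the pair.

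The 3 called entries with under 100 reads in some library are given without a fold change. AC005538.2, a transcript that the annotation marks as still to be tested, had under 0.02, under 0.02 and 2.52 reads at 0.5 μM and 78.2, 115 and 163 reads at 2.5 μM by its annotated length. It also varied widely within other groups, at 1.19, 1.80 and near 0 RPKM in untreated cells and at 3.66, 0.512 and near 0 RPKM with 0.5 μM at 24 h. It overlaps the pseudogene MSL3P1 on the same strand, which was at 4.42, 4.26 and 4.15 RPKM with 0.5 μM and at 3.45, 3.58 and 2.27 RPKM with 2.5 μM and thus lay the other way. MIR941-1, a hairpin of 72 bases inside an intron of DNAJC5, had 2, 2 and 4 reads at 0.5 μM and 0.2 reads in each library at 2.5 μM. Its mature miRNA has the same sequence in 5 genes of RefSeq (GRCh38.p14), shown here 5′ to 3′ with the seed, bases 2 to 8, in capitals, because the sequence does not tell these genes apart.
hsa-miR-941: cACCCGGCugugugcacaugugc
SLC7A5P2, a transcribed pseudogene of the amino acid transporter gene SLC7A5, was at 10.1, 15.7 and 22.4 RPKM with 0.5 μM, at 5.28, 3.48 and 5.16 RPKM with 2.5 μM and near 0 in untreated cells, and it lies within SMG1P3 on the same strand. MTCP1, which overlaps CMC4 on the same strand, was at 5.67, 6.95 and 6.83 RPKM and at 3.88, 3.31 and 2.90 RPKM (log2 difference -0.86, SE 0.118, adjusted p = 0.0244), while CMC4 was at 13.0, 12.8 and 12.7 RPKM and at 13.8, 14.1 and 18.5 RPKM (0.24, adjusted p = 0.452). The other 55 called genes, MTCP1 among them, had at least 100 reads in each library.

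The E box that MYC and Omomyc bind, CACGTG, reads the same on both strands and was searched in RefSeq windows from 250 bases before to 50 after each gene's start (GRCh38.p14). Of 8777 tested genes with a window, 930 (10.6%) held it. Of 15 genes called higher that had a window, 2 did (ANP32B and INSIG1, 13.3%), and of 26 called lower, 1 did (DUSP2, 3.85%). The stretches around these 3 sites are shown because they are the called genes with a match, with the E box in capitals.
ANP32B, chr9:97983091-97983115, plus strand: gccgcccCACGTGcaatcggagaga
INSIG1, chr7:155297811-155297840, plus strand: gccgggcaggctCACGTGatgcgggccccg
DUSP2, chr2:96145536-96145565, minus strand: cagactgcgcccCACGTGaggggcgggggc
The sites began 243, 55 and 113 bases before the start of the gene. A match describes these letters in this window and is not a measured binding site.

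The same dose step at 24 h used 6 other libraries and so gave a separate measurement of the genes called at 6 h. At 24 h, 579 of 13629 genes (4.25%) passed by limma, 56.3% of them higher, which was 39.4% with median-ratio scaling and 92.6% with rescaling to an equal sum. The count was 269 without 0.5 μM replicate 1 and 233, 142 and 144 without replicates 1, 2 and 3 of 2.5 μM. Of the 58 genes, 57 were tested at 24 h and 32 passed, each in the direction it had at 6 h, which is 55.2% of the genes called at 6 h and 5.53% of those called at 24 h. Of 25 genes higher at 6 h, 24 were also higher at 24 h, and of 32 tested genes lower at 6 h, 27 were also lower. Among all 13266 genes tested at both times, 65.6% of those above 0 at 6 h were above 0 at 24 h and 47.3% of those below 0 were below 0. The median log2 difference at 24 h was 0.232 over the genes called higher at 6 h and -0.308 over those called lower, beside 0.032 over all genes tested at 24 h. The count of 32 fell to 21, 16 and 15 without replicates 1, 2 and 3 of 2.5 μM at 24 h, to 13 with no filter on low values and to 8 without a trend, while 50 to 53 genes had the same direction with any 1 of the 6 libraries left out. Rescaling to an equal sum, which moved the median of all genes at 24 h to 0.159, gave 50 in the same direction and 36 of 37 called so.

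DUSP2 was at 276, 243 and 283 RPKM with 0.5 μM and at 165, 159 and 154 RPKM with 2.5 μM after 24 h, a log2 difference of -0.74 (SE 0.0582, adjusted p = 0.000685). PTPN6 was at 53.01, 52.4 and 53.4 RPKM and at 44.0, 40.6 and 41.1 RPKM, a log2 difference of -0.33 (SE 0.0444, adjusted p = 0.00549). MYC was at 140.1, 152 and 139.7 RPKM and at 162, 177 and 168 RPKM, a log2 difference of 0.23 (SE 0.0477, adjusted p = 0.0304). In these 3 genes, all called at 24 h, the doses again did not overlap. The share of all genes without overlap was not counted at 24 h. At 0.5 μM and 24 h DUSP2 and MYC overlapped the untreated libraries and PTPN6 lay above them. INSIG1 (0.41) and MSMO1 (0.28) were higher, and CHAC1 (-0.45), DDIT4 (-0.64) and SESN2 (-0.25) were lower at 24 h, all 5 past the threshold. MVK was at 0.39 and missed it (adjusted p = 0.0548). Of the called genes VPREB3, MTCP1, HBEGF, IKZF1, BLNK and GCNT1 had a sign at 24 h that was not that at 6 h, none past the threshold at 24 h.

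**Figure D5:**
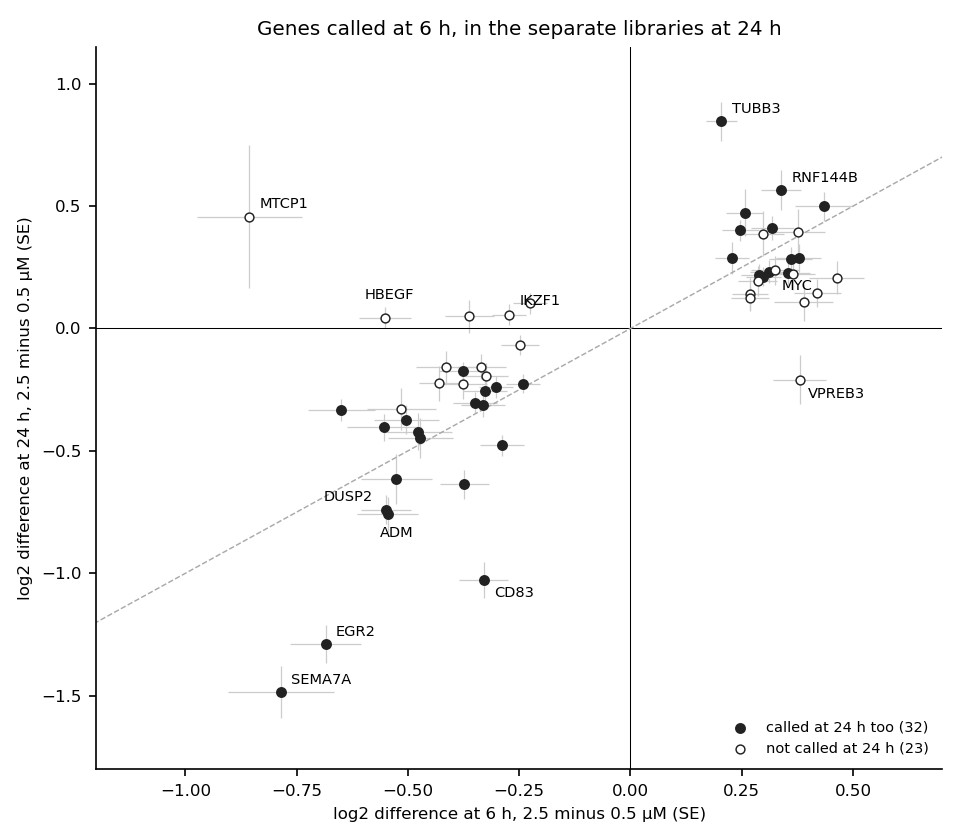
For 55 of the 58 genes called at 6 h, the log2 difference of 2.5 minus 0.5 μM at 6 h is plotted against that in separate libraries at 24 h, with bars of 1 SE and a dashed line of equal values; filled points (32) also passed at 24 h. Most points lie in the quadrants of equal sign, with MTCP1, HBEGF, IKZF1, BLNK, GCNT1 and VPREB3 outside them. The 3 called entries with under 100 reads in some library are left out.

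Whether the dose step differed between the times was tested with an interaction term over the 12 treated libraries. It passed for 53 of 13588 genes (0.39%), 6 of them among the 58. HBEGF differed between the doses at 6 h, while at 24 h it was at 30.8, 31.6 and 30.9 RPKM and 32.5, 32.3 and 31.5 RPKM, and the step at 6 h minus that at 24 h was -0.60 (SE 0.0730, adjusted p = 0.00968). The difference of HBEGF held in every alternative but the fit with no filter (adjusted p = 0.056). IKZF1 and BLNK, lower with 2.5 μM at 6 h, had steps of 0.06 and 0.10 at 24 h, with differences of -0.33 (SE 0.0541, adjusted p = 0.0256) and -0.33 (SE 0.0527, adjusted p = 0.0223). CD83 and EGR2 had larger falls at 24 h (-1.03 and -1.29), with differences of 0.70 (SE 0.102, adjusted p = 0.0134) and 0.60 (SE 0.111, adjusted p = 0.0381), and TUBB3 a larger rise (0.85), with a difference of -0.64 (SE 0.0937, adjusted p = 0.0134). EGR2 at 24 h was at 40.4, 33.2 and 33.3 RPKM with 0.5 μM, above the untreated libraries, and at 14.7, 13.6 and 14.4 RPKM with 2.5 μM. Without 0.5 μM replicate 2 of the 6 h libraries the count of 53 fell to 2, and it was 16 without 0.5 μM replicate 3 and 19, 19 and 16 without replicates 1, 2 and 3 of 2.5 μM at 6 h. Of the 24 h libraries, replicates 1 and 3 of 0.5 μM left 25 and 80 when removed, and replicates 1, 2 and 3 of 2.5 μM left 17, 16 and 16. Of the 53 differences 66% were positive, against 40% of 15 with rescaling to an equal sum.

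Against untreated cells both doses stood far apart at 6 h. With 0.5 μM, 3209 of 13614 genes (23.6%) passed, and with 2.5 μM, 3795 of 13595 (27.9%), in comparisons that share the untreated libraries and, with the dose step, the treated ones. These were 58.7% and 61.8% higher, against 79.7% and 85.2% with rescaling to an equal sum. The counts fell to 1853 and 1862 without replicates 2 and 3 of 0.5 μM, and to 2521, 2475 and 2446 without replicates 1, 2 and 3 of 2.5 μM. Of the 58 genes, 37 passed at the lower and 50 at the higher dose. EGR2 had log2 differences from untreated cells of -1.81 and -2.50 at the 2 doses, SEMA7A -1.30 and -2.08, TUBB3 1.26 and 1.46, and INSIG1 0.90 and 1.22. MYC had 0.04 and 0.35, and CD72 0.37 and -0.06. For EGR2, SEMA7A, TUBB3 and INSIG1 the distance from untreated cells to the lower dose exceeded the step between the doses.

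In 25 of the 37 lists 0 members were called by limma, and their medians lay between -0.117 and 0.122. The upper end was the type I interferon response, with 0 of 27 genes called (5 with an unadjusted p under 0.05). Its members of the highest level were BST2, which tethers budding viruses to the cell, at 64.7, 68.4 and 70.6 RPKM with 0.5 μM and 70.2, 75.9 and 73.8 RPKM with 2.5 μM, and the exonuclease ISG20, at 97.9, 84.0 and 87.7 RPKM and 100.3, 99.7 and 93.0 RPKM. Both missed the threshold (adjusted p = 0.472 and 0.529). At 24 h the median of the interferon list was -0.382, with 5 called lower and 0 higher by limma. The lower end was the 13 mRNAs of the mitochondrial genome, with log2 differences of -0.08 for MT-CO1 and -0.05 for MT-CO3 and a median of -0.366 at 24 h. Housekeeping and growth genes of high level lay near 0, with log2 differences of 0.03 for the glycolytic enzyme GAPDH, 0.03 for ENO1, 0.01 for the polyamine enzyme ODC1, 0.01 for the helicase subunit MCM7, 0.05 for the replication clamp PCNA, 0.02 for the ribosomal protein RPS18 and 0.08 for the chaperone HSPA8. Of the MHC class II genes of highest level, the invariant chain CD74 had 0.00 and HLA-DRA -0.09. The medians of the lists for the MYC network, chromatin immunoprecipitation, plasma cells, BCL2 family, endoplasmic reticulum stress and hypoxia, all within 0.05 of 0, changed sign under some alternative or without some library. The same held for aminoacyl-tRNA synthetases, cytosolic ribosomal proteins, histone clusters, heat shock proteins, lysosome and uptake, oxidative phosphorylation and the circadian clock. The 24 h step called 14 of 30 immediate early genes, 18 of 34 NF-κB genes and 12 of 23 genes for MHC class II and co-stimulation lower, beside 1.86% of all genes tested (2.39% were higher). Called higher at 24 h were 10 of 39 DNA replication genes, 9 of 26 sterol genes and 6 of 21 G1 cyclins, CDKs and CDK inhibitors. So were 6 of 44 ribosome biogenesis and 5 of 24 nucleotide synthesis genes. In the sterol list 1 gene was called lower.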

How the data were processed

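Total RNA of Ramos cells was depleted of rRNA and sequenced as stranded libraries, per the labels. The authors deposited RPKM values, which divide the reads of a gene by its length and by library size, and the submitters' processing notes name RSEM with no version. The aligner, build and strand setting are not given in the sources used here. Gene symbols came from GENCODE 29 (GRCh38) for 57388 of 57992 Ensembl IDs, and 604 were left without one. Values were tested as log2(RPKM + 0.5), so that fold changes of low genes are understated, in genes with a mean of at least 0.5 RPKM, with limma 3.58.1 in R 4.3.3 (lmFit, and eBayes with a trend on the level). P-values were adjusted by the method of Benjamini and Hochberg over all genes tested, and genes with an adjusted p under 0.05 were called. Each comparison was fitted on its own libraries, and the dose by time interaction on 12. The alternatives changed the pseudocount, the filter, the scaling, the trend, the libraries in the fit and the replicate numbers, and 1 of them, the removal of a trend on gene length, was added after the data were seen. Exact permutation tests used scipy 1.17.1. The scripts were tested on simulated data. RPKM values do not carry depth, so reads were recovered from the steps between low values. Since many values were not whole, recovered reads entered no test. They described precision and set apart the called entries with under 100 reads in some library. Named were MYC, MAX, the genes studied by RT-PCR and by chromatin immunoprecipitation, up to 12 called genes per direction with a mean of at least 2 RPKM, up to 4 called members per list or, with no call, the 2 of highest level, and up to 5 interaction genes per direction. Other called genes, list members that missed the threshold (such as FOS and ATF4) and overlapping genes were named after their values were seen, and some genes are not reported here. The comparison and the gene lists were chosen with earlier results of these data known.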

Additional observations from a re-analysis of the deposited data

Results flagged for a closer look

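For 13 of the named genes the dose step at 6 h differed from that at 24 h by the interaction term in limma. The step at 6 h minus that at 24 h, on the log2 scale, was -0.60 for HBEGF, -0.33 for IKZF1, -0.33 for BLNK and -0.64 for TUBB3, and 0.60 for EGR2 and 0.70 for CD83, all called at 6 h and described above. The chemokine genes CCL4 and CCL3 had differences of 1.63 (adjusted p = 0.0341) and 1.49 (adjusted p = 0.0350). At 6 h CCL4 was at 0.932 ± 0.27 and 0.481 ± 0.16 RPKM, close to the pseudocount, and with a pseudocount of 0.1 its adjusted p was 0.103. CCL3 was at 1.96 ± 0.54 and 1.01 ± 0.19 RPKM with 0.5 and 2.5 μM at 6 h and at 22.4 ± 6.3 and 4.46 ± 0.41 RPKM at 24 h (SD, n = 3). CCL1 passed the filter through its 24 h libraries alone, with means of 0.239 and 0.0487 RPKM at 6 h and 8.99 and 1.06 RPKM at 24 h, and no difference is given for it. CCL3 and CCL4 have near-identical copies in the genome that could share their reads. FCRL5, an Fc receptor homologue of B cells, had a difference of 1.05 (adjusted p = 0.0473). The levels of CCL4, CCL3 and FCRL5 with 0.5 μM were lower at 6 h than at 24 h. BSPRY had a difference of -0.73 (adjusted p = 0.0134), with steps of -0.34 at 6 h and 0.39 at 24 h. AC126755.2 had -0.81, F8A1, a gene with copies, -0.83, and the pseudogene PPP1R2P4 -3.09, with adjusted p-values of 0.0318, 0.0318 and 0.0450.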

How the results depend on the processing

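Every count was smaller by over 1.5 times without some library. Leaving out libraries in turn gave 0 to 18 genes for 2.5 against 0.5 μM at 6 h (58 as reported), 142 to 645 at 24 h (579), 1853 to 3012 for 0.5 μM against untreated (3209), 2446 to 3703 for 2.5 μM against untreated (3795) and 2 to 80 for the dose by time interaction (53). Fewer libraries enter these fits. With no filter on low values the dose step called 0 genes at 6 h and 65 at 24 h and the interaction 2. Without a trend these were 0, 54 and 8. Rescaling to an equal sum gave 33, 2563 and 15. A mean of at least 2 RPKM gave 91 at 6 h, all 5 groups in 1 fit gave 904 at 24 h, and a pseudocount of 0.1 gave 35 in the interaction. The cause was not tested. Median-ratio scaling, quantile normalization, a pseudocount of 1 and the length correction kept every count they were run for within 1.5 times.

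Replicate numbers are shared between groups, but at 6 h libraries with the same number deviated from their group means with correlations of -0.02 to 0.007, and they were taken not to pair. With a replicate block the counts were 2 at 6 h, 366 at 24 h, 2910 and 3099 against untreated and 48 for the interaction.

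On the log2 scale, signs turned for 4 named genes that were not called. With rescaling to an equal sum MAX was at 0.036, SAT1 at 0.030 and FBXW8 at 0.030. Over the libraries left out in turn NCL ranged from -0.0017 (without 0.5 μM replicate 1) to 0.060, MAX from -0.031 to 0.020, SAT1 from -0.050 to 0.025 and FBXW8 from -0.15 to 0.115. Positive values were 0.020 and 0.0040 for MAX without 0.5 μM replicate 3 and 2.5 μM replicate 1, 0.013 and 0.025 for SAT1 without 0.5 μM replicate 2 and 2.5 μM replicate 1, and 0.0041, 0.032 and 0.023 for FBXW8 without 0.5 μM replicate 2, 2.5 μM replicate 1 and 2.5 μM replicate 3.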
